A study of Mus musculus with 4 samples.

Results

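The genes described here encode the presynaptic release machinery, the proteins that dock, prime and fuse synaptic vesicles at the nerve terminal and recover them afterwards. They were 49 genes chosen by symbol from a list of synaptotagmins, SNARE proteins and their regulators, active zone scaffolds, vesicle membrane proteins and recycling enzymes, and all 49 were found among the 31053 genes of the count matrix. The rule used symbols and no measured value, but the list was drawn up with earlier results of these data known.

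Nuclear RNA of the superior colliculus, a midbrain centre that receives retinal and other sensory input, was sequenced with a droplet method that counts 3′ ends by unique molecular identifiers (UMIs). The mice were C57BL/6J animals with no reported genetic change or treatment, taken at embryonic day 19 (E19) and at postnatal days 4 (P4), 8 (P8) and 21 (P21). Tissue of several animals was pooled at each stage and gave 1 library a stage, so that a difference between stages has no replicate check and no test of stage was made. The deposited annotation put the 9724 nuclei in 9 classes, among them excitatory neurons (13 subtypes) and inhibitory neurons (12 subtypes), which gave 4 within-library comparisons of classes.

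Vesicle fusion is driven by the SNARE proteins, of which synaptobrevins (Vamp1, Vamp2) sit on the vesicle and syntaxin 1A and SNAP-25 on the plasma membrane. Synaptotagmins sense calcium and, with complexins, couple fusion to the action potential; Munc13 and RIM proteins prime vesicles within a scaffold of bassoon, piccolo, ELKS and liprins. In many brain regions the isoforms in use change as synapses mature, and fast-releasing brainstem terminals are known for synaptotagmin 2, synaptobrevin 1 and complexin 1.

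The libraries held 19277512 to 31325079 UMIs. Excitatory nuclei numbered 1338, 1206, 867 and 682 at E19, P4, P8 and P21, and inhibitory nuclei 893, 738, 1088 and 740. Median UMIs per nucleus differed with stage, from 8052 at E19 to 19601 at P21 in excitatory neurons and from 6075 to 14010 in inhibitory neurons. The median share of ribosomal-protein UMIs moved the other way, from 0.462% to 0.151% and from 0.574% to 0.159%, and its part in the stage differences below was not tested. Of all nuclei, 18 carried a barcode also found in another library. Marker levels describe the classes and do not test them, since the annotation was made on the same matrix. In the 8 neuronal sums, 3 pan-neuronal markers summed to 13844 to 21353 counts per 1000000 UMIs (CPM). They summed to 1140 to 2200 CPM in astrocytes, and reached 4967 CPM in epithelial cells at P4. The glutamatergic transporter genes Slc17a6 and Slc17a7 together stood at 179 to 286 CPM in excitatory and 8.49 to 46.3 CPM in inhibitory neurons, and the 3 GABAergic markers at 34.6 to 58.6 and 680 to 950 CPM.

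The promoters of 4 members are printed because they stand for genes that rose (Syt2, Cplx1), the gene that fell most (Stx1a) and the member with the rarest pair of motifs (Syn1). The RefSeq table for GRCm38.p6 held start sites for 39 of the 49 members, 50 promoters in all; each window runs from 250 bases before to 50 bases after the start, 5′ to 3′ on the gene's strand. Capitals mark the motifs found, which were searched on both strands. The GC box was searched with the letters GGGCGG, and the classical CCAAT motif with its own letters. The TATA box was searched with the letters TATAAA. The cAMP response element was searched with the letters TGACGTCA. The leading part of the RE1 element, the site of the repressor REST, was searched with the letters TTCAGCACC. No motif is contained in another.
Syt2, chr1:134646362-134646661, plus strand: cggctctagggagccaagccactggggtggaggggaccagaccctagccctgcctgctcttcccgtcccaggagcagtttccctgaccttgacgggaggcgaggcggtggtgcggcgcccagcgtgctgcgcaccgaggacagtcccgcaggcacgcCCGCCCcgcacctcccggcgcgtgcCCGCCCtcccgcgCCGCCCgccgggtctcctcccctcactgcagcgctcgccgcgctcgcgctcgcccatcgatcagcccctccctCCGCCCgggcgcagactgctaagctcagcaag
Cplx1, chr5:108549978-108550277, minus strand: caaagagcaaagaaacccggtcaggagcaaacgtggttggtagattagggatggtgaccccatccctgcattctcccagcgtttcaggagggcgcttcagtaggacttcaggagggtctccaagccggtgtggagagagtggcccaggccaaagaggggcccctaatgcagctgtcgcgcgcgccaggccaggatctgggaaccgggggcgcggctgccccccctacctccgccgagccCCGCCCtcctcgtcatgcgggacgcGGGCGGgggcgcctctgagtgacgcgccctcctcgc
Stx1a, chr5:135023232-135023531, plus strand: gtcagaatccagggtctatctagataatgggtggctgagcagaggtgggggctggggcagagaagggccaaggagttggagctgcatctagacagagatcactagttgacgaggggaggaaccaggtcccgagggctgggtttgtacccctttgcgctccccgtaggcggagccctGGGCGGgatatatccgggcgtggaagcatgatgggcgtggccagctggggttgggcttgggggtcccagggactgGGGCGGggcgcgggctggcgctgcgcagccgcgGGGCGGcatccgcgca
Syn1, chrX:20920869-20921168, minus strand: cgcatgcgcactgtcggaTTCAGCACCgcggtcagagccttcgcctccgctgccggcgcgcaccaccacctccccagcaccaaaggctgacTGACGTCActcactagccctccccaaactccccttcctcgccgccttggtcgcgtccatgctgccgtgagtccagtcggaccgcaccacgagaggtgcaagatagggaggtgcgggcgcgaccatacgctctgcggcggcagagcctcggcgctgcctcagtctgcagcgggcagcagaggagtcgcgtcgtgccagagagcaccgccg
The Syt2, Cplx1 and Stx1a windows shown hold 4, 2 and 3 GC boxes and none of the other motifs, so that risers and a faller share this feature. Syt2 has a second start site in the table, whose window is not shown and holds 2 GC boxes and 1 CCAAT motif. The Syn1 window holds no GC box, but 1 cAMP response element and 1 RE1 part.

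Among all 32851 promoters of the same length, 35.7% held a GC box, against 36 of the 50 member promoters. A CCAAT motif stood in 37.4% of all promoters and in 12 of the member promoters. A TATA box stood in 13.6% of all and in 2 of the member promoters, both of Sv2b. The cAMP response element occurred in 1.79% of all and in 1 member promoter, and the leading RE1 part in 0.371% of all and in 3 member promoters, those of Ppfia3, Syn1 and Unc13a. The median number of CpG dinucleotides was 19 in member promoters and 7 in all. These matches are descriptions of letters, not of binding.

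The 49 members together took 11967, 12845, 12305 and 13056 CPM of excitatory nuclear RNA from E19 to P21, and 11881, 12392, 13161 and 13959 CPM of inhibitory RNA. The total thus differed less between E19 and P21 than single members, some of which changed by several fold. It is a share of UMIs and not an amount per nucleus, since UMIs per nucleus differed with stage. In astrocytes the same sum was 3995 to 4734 CPM, in the oligodendrocyte lineage 4669 to 6588 CPM and in vascular leptomeningeal cells 2291 to 2814 CPM. Fewer cells with a transcript and less RNA in each cell cannot be told apart in these sums.

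**Figure D1:**
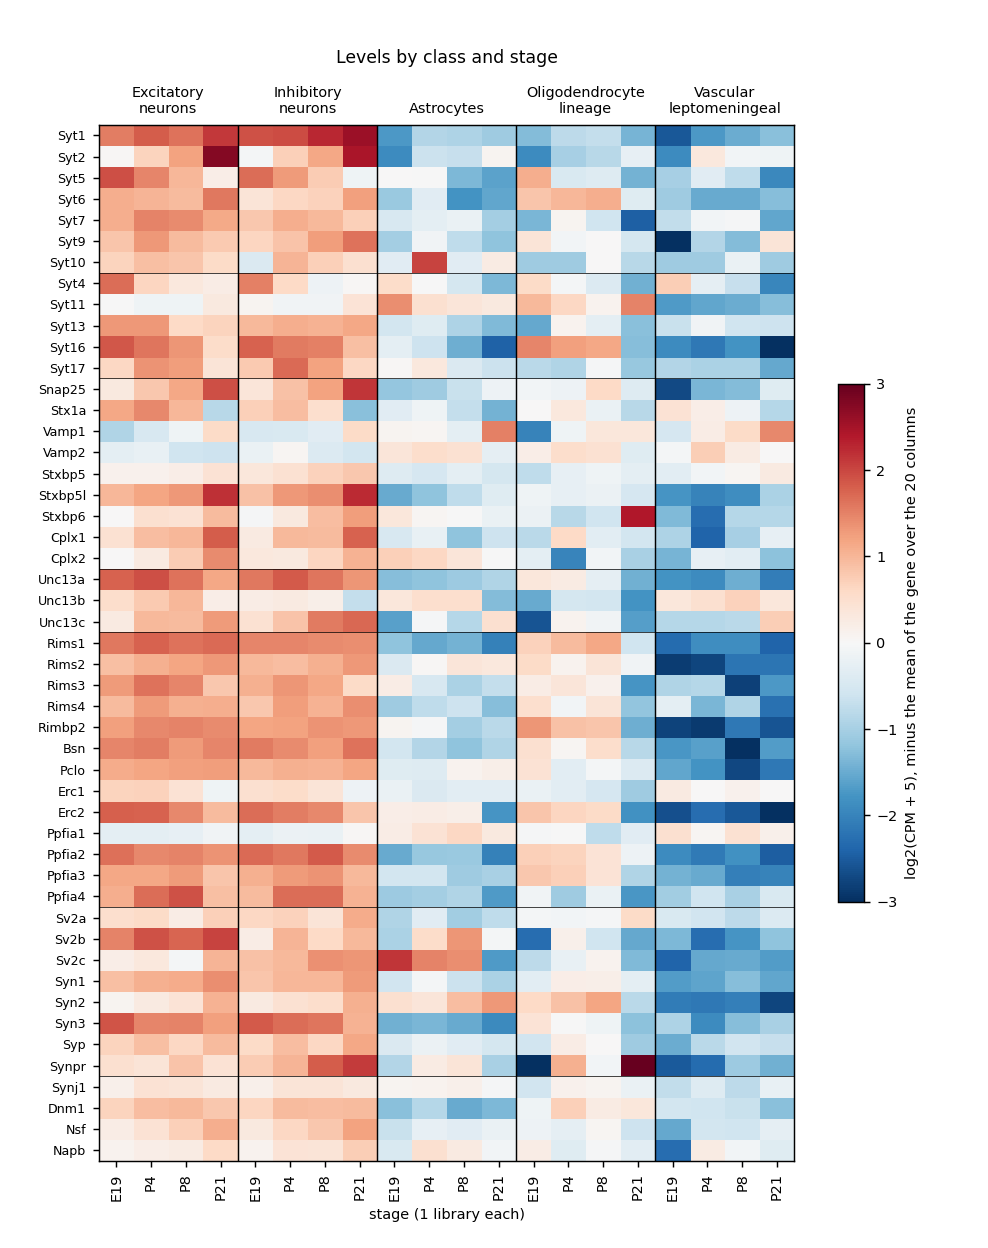
Levels of the 49 members in 5 classes at the 4 stages. Colour is log2(CPM + 5) minus the mean of the gene over the 20 columns, cut at 3 either way; rows follow the protein's role and each column is 1 library. Most rows are higher in the 8 neuronal columns; Synpr and Stxbp6 stand out in the oligodendrocyte lineage at P21, and Sv2c in astrocytes at E19.

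Changes with stage are log2 ratios of CPM after adding 5 CPM to each value, a scale on which low genes appear to change less, with 95% intervals that cover counting error only. A gene is said to have risen or fallen where the ratio passed 1 on this scale. From E19 to P21, 7 members rose and 4 fell in excitatory neurons; among all genes with a UMI there, 2.39% rose and 4.81% fell, and among those with at least 20 CPM in the higher library 5.35% and 10.7%. In inhibitory neurons 8 rose and 3 fell, where the shares were 2.75% and 5.39% of all genes with a UMI, and 5.83% and 11.3% of those with at least 20 CPM. The member median was 0.14 in excitatory and 0.32 in inhibitory neurons, beside -0.02 in both over all genes with a UMI. In all, 9 members passed the same threshold in the same direction in both classes: Syt2, Snap25, Cplx1, Vamp1, Stxbp5l and Unc13c upward, and Stx1a, Syt5 and Syt4 downward. The share of all genes that did so was not computed. Both classes come from the same E19 and P21 libraries, so this overlap is not a replicate check. Scaling by median-of-ratios size factors in place of total UMIs moved the median gene by 0.11 and 0.10 upward in the 2 classes. The mix of subtypes also differed between the stages. EN1 held 514 of 1338 excitatory nuclei at E19 and 138 of 682 at P21, and IN1 266 of 893 and 70 of 740 inhibitory nuclei. With subtypes weighted alike, 10 members rose and 4 fell in excitatory neurons, with Stxbp6, Sv2c and Syn2 added. In inhibitory neurons 8 rose and 4 fell, with Sv2b, Syt9 and Unc13b added and Synpr and Unc13c lost. The shares of all genes at this weighting were not computed.

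**Figure D2:**
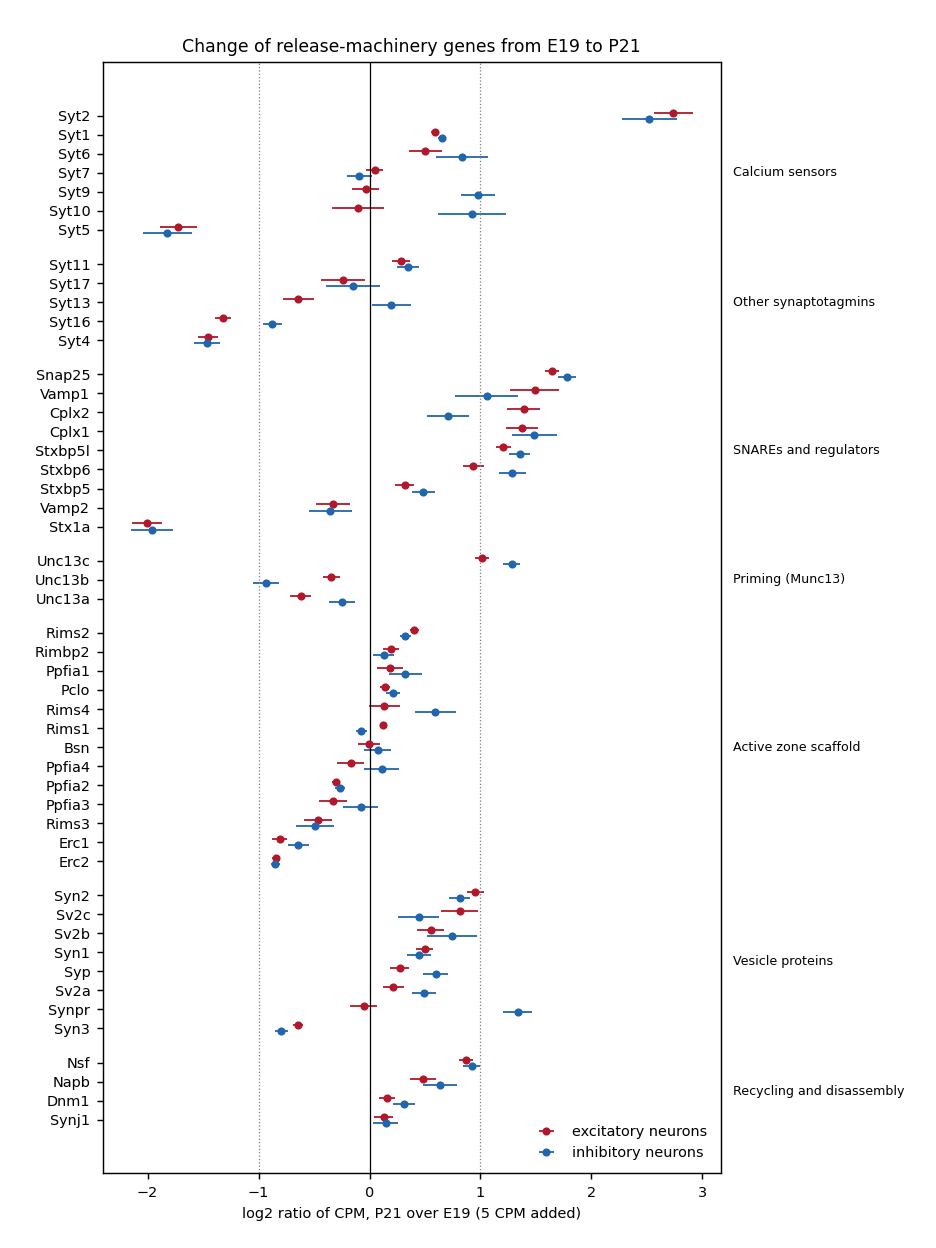
Log2 ratio of CPM, P21 over E19, for each member in excitatory (red) and inhibitory (blue) neurons. Bars are 95% counting intervals, dotted lines mark 1 and -1, and genes are grouped by role. Syt2 lies farthest right (2.74 and 2.52) and Stx1a farthest left (-2.01 and -1.96); active zone scaffolds lie between -0.85 and 0.59.

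Among the calcium sensors, Syt2, the fast sensor of many brainstem terminals, stood at 14.0, 24.6, 38.1 and 121 CPM in excitatory neurons at E19, P4, P8 and P21. In inhibitory neurons it stood at 12.7, 25.7, 36.5 and 97.1 CPM. Each stage was higher than the one before in both classes, and the counting intervals of E19 and P21 lie far apart. The log2 ratio from E19 to P21 was 2.74 (95% interval 2.56 to 2.91) in excitatory and 2.52 (2.28 to 2.77) in inhibitory neurons. It was past 1 in all 11 excitatory subtypes with at least 20 nuclei in both libraries, from 1.24 in EN12 to 5.35 in EN9, and in 10 of 12 inhibitory subtypes. The lowest inhibitory value was that of IN3, 0.06.

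Syt1, its close relative and the main fast sensor of the forebrain, stood at 1152, 1400, 1241 and 1733 CPM in excitatory neurons and at 1492, 1553, 1910 and 2351 CPM in inhibitory neurons. Its ratios of 0.59 (0.56 to 0.62) and 0.65 (0.62 to 0.69) stayed below the threshold, though they were above 0 in all 11 and all 12 subtypes. Per kilobase of gene, excitatory Syt2 was at 0.120 CPM at E19 and 1.05 CPM at P21, beside Syt1 at 2.24 and 3.38 CPM. The log2 ratio of Syt2 to Syt1 UMIs therefore moved from -6.37 (-6.59 to -6.14) to -3.84 (-3.90 to -3.77) in excitatory neurons and from -6.87 to -4.60 in inhibitory neurons. Syt1 remained the higher of the pair in CPM at every stage, and per kilobase at the stages shown. The method counts 3′ ends, so UMIs need not scale with gene span.

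Subtype IN3 departed from this pattern. Its Syt2 rested on 3, 2, 10 and 21 UMIs at the 4 stages, or 9.93, 6.31, 5.66 and 10.5 CPM, where the median inhibitory subtype reached 129 CPM at P21. The same subtype had the highest inhibitory Syt1 at P21 (3991 CPM, median 1920), the highest Snap25 (1421 CPM, median 651) and the highest Unc13c (2085 CPM, median 327). IN3 held 67, 61, 215 and 126 nuclei; it was singled out after its values were seen.

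Syt5, which is found on synaptic and dense-core vesicles, went the other way. It stood at 67.3, 47.7, 32.7 and 16.9 CPM in excitatory and at 56.2, 41.2, 27.2 and 12.3 CPM in inhibitory neurons, lower at each successive stage. The ratios were -1.72 (-1.89 to -1.55) and -1.82 (-2.04 to -1.60), and all 11 excitatory and 11 of 12 inhibitory subtypes had lower values at P21. Syt7, the high-affinity sensor of asynchronous release, changed little between the end stages (0.05 and -0.09) but was highest at P4 in both classes, at 255 and 192 CPM. Syt9 reached 127 CPM from 61.7 CPM in inhibitory neurons, a ratio of 0.98 (0.83 to 1.13), against -0.04 (-0.16 to 0.09) in excitatory neurons. Syt6 and Syt10 had ratios of 0.83 and 0.92 in inhibitory neurons and 0.50 and -0.10 in excitatory neurons; the difference between the classes was not tested for these genes.

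The remaining synaptotagmins mostly lack the full calcium-binding pocket. Syt4, whose product sits on dense-core vesicles and limits their fusion, fell from 248 CPM at E19 to 118, 93.2 and 87.1 CPM in excitatory neurons and from 219 to 114, 65.9 and 76.2 CPM in inhibitory neurons. The largest step came between E19 and P4, earlier than for most members. The ratio was -1.46 in both classes, and it was negative in all 11 and all 12 subtypes. Syt16 stood at 374, 307, 254 and 147 CPM in excitatory neurons and fell by 1.32 on the log2 scale; in inhibitory neurons its ratio was -0.88. Syt11, which restrains vesicle retrieval, stayed within 0.35 of its E19 level in both classes.

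**Figure D3:**
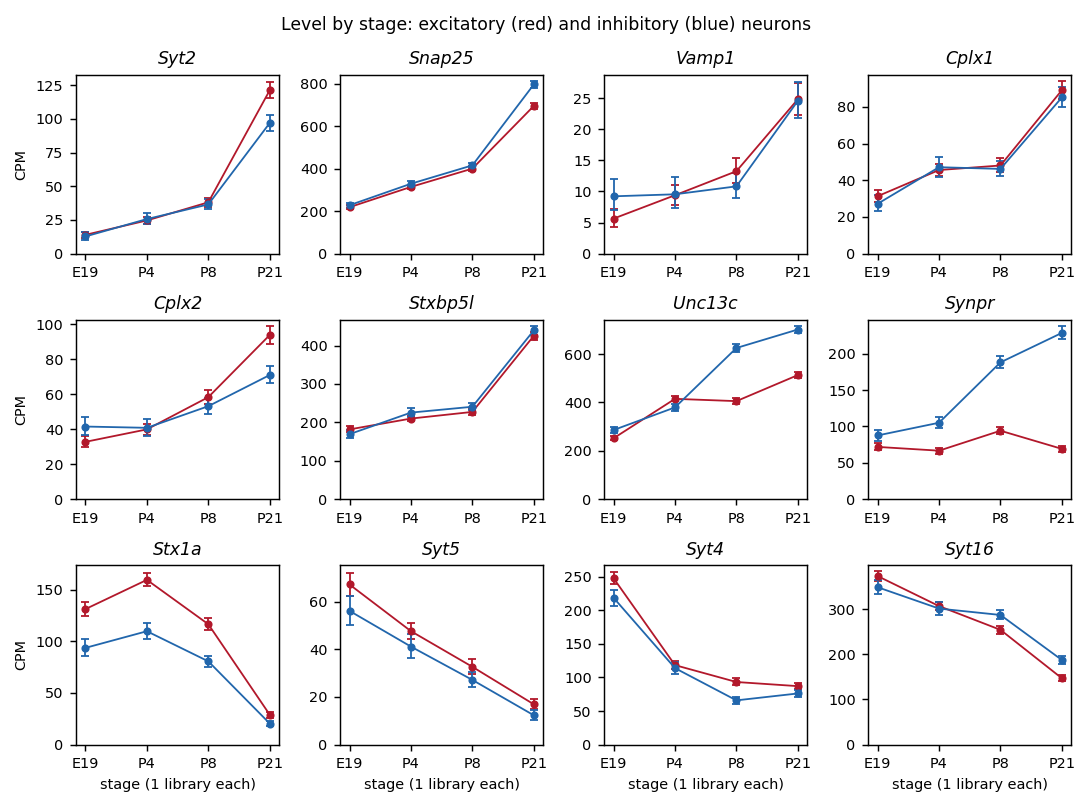
CPM of 12 members at the 4 stages in excitatory (red) and inhibitory (blue) neurons, with 95% counting intervals; every axis starts at 0. The first 8 panels are genes that rose in at least 1 class, of which Synpr rose in inhibitory neurons alone by the threshold; the last 4 are genes that fell, Syt16 in excitatory neurons alone by the threshold.

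The SNARE proteins and their regulators held most of the rises, 5 of 9 genes in each class. Snap25, the plasma membrane SNARE anchored by palmitoylation, stood at 218, 314, 400.1 and 695 CPM in excitatory neurons and at 228, 329, 415 and 796 CPM in inhibitory neurons. Each stage was again higher than the one before, and the ratios were 1.65 (1.59 to 1.71) and 1.78 (1.70 to 1.86). All 11 excitatory subtypes and all 12 inhibitory subtypes were higher at P21, by 0.73 in EN6 and by at least 1.04 in the inhibitory subtypes. EN6 was the subtype with the highest Snap25 at E19 (579.7 CPM), so that its small change started from a high level.

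Stx1a, which encodes syntaxin 1A, moved opposite to its SNARE partner. It stood at 131, 159.7, 117 and 28.9 CPM in excitatory neurons and at 93.8, 109.9, 80.7 and 20.3 CPM in inhibitory neurons. The level peaked at P4 and the P21 value was the lowest in both classes. The ratios were -2.01 (-2.15 to -1.87) and -1.96 (-2.15 to -1.77), and the fall passed 1 in all 11 excitatory and all 12 inhibitory subtypes.

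Vamp1 and Vamp2 are the vesicle SNAREs. Vamp1 stood at 5.64, 9.40, 13.3 and 24.9 CPM in excitatory and at 9.23, 9.55, 10.8 and 24.6 CPM in inhibitory neurons, with ratios of 1.49 (1.27 to 1.71) and 1.06 (0.77 to 1.34). Vamp2 stood at 45.8, 48.3, 35.9 and 35.5 CPM in excitatory and at 48.98, 59.0, 41.9 and 37.2 CPM in inhibitory neurons, with ratios of -0.33 and -0.35. The log2 ratio of Vamp1 to Vamp2 UMIs moved from -3.02 (-3.39 to -2.65) to -0.51 (-0.71 to -0.32) in excitatory neurons and from -2.41 to -0.60 in inhibitory neurons. Per kilobase of gene span, Vamp2 (3.90 kb) stood at 9.11 CPM and Vamp1 (30.4 kb) at 0.817 CPM at P21 in excitatory neurons. Because 3′ ends were counted, UMIs need not scale with span, so these values do not rank the 2 genes. The Vamp1 rise in inhibitory neurons did not pass the threshold with 20 CPM added in place of 5, nor with each nucleus thinned to 2300 UMIs, and the excitatory value did not with 20 CPM added. Cd27 and Tapbpl lie on the opposite strand within the Vamp1 span; whether counting used strand is not given in the sources used here.

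Complexins bind the assembled SNARE complex and clamp or promote fusion. Cplx1 stood at 31.3, 45.6, 48.1 and 89.1 CPM in excitatory and at 27.2, 47.1, 46.2 and 85.2 CPM in inhibitory neurons, with ratios of 1.37 (1.23 to 1.52) and 1.49 (1.28 to 1.69). Cplx2 stood at 32.7, 39.8, 58.2 and 93.7 CPM in excitatory neurons (1.39, 1.24 to 1.53), but at 41.4, 40.7, 53.1 and 70.9 CPM in inhibitory neurons (0.71, 0.52 to 0.89). In excitatory neurons the log2 ratio of Cplx1 to Cplx2 UMIs was -0.06 at E19 and -0.07 at P21, but 0.20 (0.04 to 0.35) at P4 and -0.28 (-0.43 to -0.12) at P8. In inhibitory neurons it stood at -0.61 (-0.89 to -0.32), 0.21 (-0.03 to 0.45), -0.20 (-0.37 to -0.03) and 0.27 (0.13 to 0.40), so that it was higher at P21 than at E19 without moving one way throughout.

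The tomosyns compete with synaptobrevin for the SNARE complex. Stxbp5l (tomosyn 2) stood at 181, 209.7, 227 and 425 CPM in excitatory neurons and at 169, 225, 240.5 and 439 CPM in inhibitory neurons, with ratios of 1.21 and 1.35. Its relative Stxbp5 had ratios of 0.32 and 0.48. Stxbp6 (amisyn), a further SNARE-binding inhibitor, stood at 95.8, 122, 191 and 241 CPM in inhibitory neurons and rose by 1.29 (1.16 to 1.41); in excitatory neurons the ratio was 0.93, and it passed 1 with median-of-ratios scaling, with each nucleus or each subtype weighted alike and with nuclei thinned to 2300 UMIs. Genes that promote SNARE assembly and genes that inhibit it were therefore both among the risers.

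The 3 Munc13 genes encode priming factors and differed from each other. Unc13c (Munc13-3, best known from the cerebellum) stood at 252, 415, 405 and 513 CPM in excitatory and at 286, 379, 625 and 702 CPM in inhibitory neurons, with ratios of 1.01 (0.95 to 1.07) and 1.28 (1.21 to 1.36). Unc13a went from 161 to 103 CPM in excitatory neurons, a ratio of -0.62. Unc13b had ratios of -0.35 and -0.93. The log2 ratio of Unc13c to Unc13a UMIs moved from 0.65 (0.56 to 0.73) to 2.32 (2.24 to 2.40) in excitatory neurons and from 1.03 to 2.58 in inhibitory neurons. The excitatory Unc13c value lay at the edge: it fell short of 1 without subtype EN7, with 20 CPM added, and among nuclei with 0.15 to 0.30% ribosomal-protein UMIs; the inhibitory value fell short with subtypes weighted alike.

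None of the 13 active zone scaffolds passed the threshold in either class, but most other genes did not pass it either. Past a 20 CPM minimum, 5.35% of all genes rose and 10.7% fell in excitatory neurons. In inhibitory neurons these shares were 5.83% and 11.3%. Whether the scaffolds differ from other genes in this was not tested. Bsn (bassoon) stood at 126, 132, 110.1 and 125 CPM in excitatory neurons and Pclo (piccolo) at 548, 575, 593 and 603 CPM. Rims1 stood at 1076, 1223, 1107 and 1173 CPM. The lowest ratios were those of the ELKS genes: Erc2 stood at 1472, 1460, 1154 and 819 CPM in excitatory and at 1365, 1246, 1165 and 756 CPM in inhibitory neurons, with ratios of -0.84 (-0.88 to -0.81) and -0.85 (-0.89 to -0.81). Erc1 had ratios of -0.81 and -0.64, and both genes were lower at P21 in all 11 excitatory and all 12 inhibitory subtypes. The log2 ratio of Erc2 to Erc1 UMIs was 2.20 (2.15 to 2.25) at E19 and 2.18 (2.12 to 2.24) at P21 in excitatory neurons, and 2.28 (2.21 to 2.36) and 2.08 (2.01 to 2.15) in inhibitory neurons, where the intervals of the end stages do not overlap. Erc2 spans 856 kb, the longest of the members, and 2 predicted genes lie on its strand.

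Among the vesicle proteins, Synpr (synaptoporin) stood at 87.6, 105, 188 and 229 CPM in inhibitory neurons and rose by 1.34 (1.21 to 1.47), while excitatory neurons held 71.8, 66.6, 94.1 and 69.1 CPM, a ratio of -0.05. With subtypes weighted alike the inhibitory value did not pass 1. Its paralog Syp (synaptophysin) had ratios of 0.27 and 0.60. The synapsins, which tether vesicles in the reserve pool, divided: Syn2 had ratios of 0.95 and 0.81 and Syn1 of 0.50 and 0.45, and both were higher at P21 in all 11 and all 12 subtypes. Syn3, an early synapsin, stood at 731, 548, 558 and 466 CPM in excitatory neurons (-0.65) and had a ratio of -0.80 in inhibitory neurons, lower in every one of the same subtypes. The log2 ratio of Syn3 to Syn1 UMIs moved from 2.20 to 1.04 in excitatory and from 2.21 to 0.95 in inhibitory neurons.

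The 4 recycling and disassembly genes all had ratios above 0 in both classes, although inhibitory Synj1 was at -0.04 with each nucleus thinned to 2300 UMIs and at -0.12 among nuclei with 0.15 to 0.30% ribosomal-protein UMIs. Nsf, the ATPase that takes spent SNARE complexes apart, was at 256, 300.2, 362 and 471 CPM in excitatory neurons, with ratios of 0.87 and 0.92, and was higher in every one of the 11 and 12 subtypes. Its cofactor Napb had ratios of 0.48 and 0.63. Dnm1 (dynamin 1) and Synj1 (synaptojanin 1), which act in vesicle retrieval, had ratios between 0.13 and 0.31.

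For 31 of 49 members in each class the greatest of the 3 successive changes, in either direction, lay between P8 and P21, which are also the stages farthest apart in days. Among all genes with at least 20 CPM at the highest stage this held for 54.7% in excitatory and 56% in inhibitory neurons, and for 30 and 31 of the 48 members past that level, so that the members lay near the background. Between P8 and P21, 2 members rose and 1 fell past the threshold in excitatory neurons, where 0.929% and 1.37% of all genes did, and 1 rose and 1 fell in inhibitory neurons, where 1.14% and 1.47% did. Across successive stages 13 members were higher each time in excitatory neurons and 14 in inhibitory neurons, and 4 in each class were lower each time. Of all genes with at least 20 CPM at the highest stage, 13.3% and 13% were higher each time in the 2 classes and 21.5% in either class were lower each time; the members' shares, over the 48 past that level, were 27.1% and 29.2% higher and 8.33% lower in either class.

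Gene length was set beside the change, because span differs widely among members. Spearman's correlation of the ratio with gene span was 0.090 in excitatory and 0.085 in inhibitory neurons over the 49 members. Over genes with at least 20 CPM it was 0.295 and 0.304, given as a description across genes that share libraries. The median ratio of the 8 members under 30 kb was -0.33 in excitatory and -0.22 in inhibitory neurons. All genes of that span with at least 20 CPM had medians of -0.32 and -0.31. Member medians were 0.18 and 0.45 at 30 to 150 kb, and 0.13 and 0.27 above 150 kb. Stx1a, Syt5 and Syt4, which fell in both classes, are under 30 kb, as is Cplx2, which rose in excitatory neurons. Whether span played a part in these changes was not tested.

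Markers of other cells also moved with stage. The summed level of 4 oligodendrocyte markers went from 57.1 to 254 CPM in excitatory neurons and from 56.5 to 324 CPM in inhibitory neurons between E19 and P21, with Mobp at 0 in both classes at E19; all 19 non-neuronal markers went from 236 to 338 CPM and from 278 to 430 CPM. Myelinating oligodendrocytes themselves held much Synpr and Stxbp6 at P21, at 676 and 724 CPM. At the ratio of the markers between inhibitory neurons and the oligodendrocyte lineage, 1.63%, the lineage's Synpr would correspond to 7.95 CPM of the 229 CPM measured, and its Stxbp6 to 8.80 CPM of 241 CPM. At the ratio in astrocytes, 3.64%, Synpr would correspond to 17.8 CPM of the 22.8 CPM measured there, and Stxbp6 to 19.7 CPM of 84.3 CPM. What part of these levels came from oligodendrocyte RNA was not tested.

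Excitatory and inhibitory neurons were compared within each library with edgeR's quasi-likelihood test, with the library as a block and Benjamini-Hochberg adjustment over the 14799 genes tested. The classes come from an annotation made on the same matrix, so the test only sets the size of a difference against its spread over the 4 libraries. That spread was estimated for each gene with information from all genes, and a call does not mean that the libraries gave alike values. Of the 49 members, all of which were tested, 11 were higher and 4 lower in excitatory neurons at an adjusted p under 0.05, where 9.48% of all genes tested were higher and 7.72% lower. The share of members called higher was 22.4% and the share called lower 8.16%. Without the library block edgeR called 0 members, and 6 of the 49 had an unadjusted p under 0.05. With the block but without the P8 library, it called 9 (7 higher, 2 lower).

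Sv2b, a vesicle glycoprotein, differed most. It stood at 62.9, 86.0, 76.4 and 94.5 CPM in excitatory and at 23.3, 44.5, 31.4 and 42.4 CPM in inhibitory neurons from E19 to P21. Every excitatory value lay above every inhibitory value. The fitted log2 difference was 1.24 (SE 0.07, edgeR adjusted p = 2.7e-05). Its relative Sv2c went the other way, at 25.2, 27.9, 20.3 and 48.1 CPM in excitatory and 43.1, 46.3, 62.4 and 60.3 CPM in inhibitory neurons, with a difference of -0.80 (SE 0.18, edgeR adjusted p = 0.019). That call was lost without the E19 library and without the P4 library (adjusted p up to 0.056), while Sv2a, the third member of the family, was not called.

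Synpr was lower in excitatory neurons in 4 of 4 libraries, by log2 ratios of -0.27, -0.62, -0.96 and -1.66 from E19 to P21. The fitted difference was -0.90 (SE 0.19, edgeR adjusted p = 0.015) and was lost without the P8 library (0.079). Unc13b was higher in excitatory neurons in 4 of 4 libraries, at 226, 270.4, 316 and 177 CPM against 182, 188, 175 and 92.8 CPM, with a difference of 0.70 (SE 0.10, edgeR adjusted p = 0.0024). Neither Unc13a nor Unc13c was called. Stx1a was higher in excitatory neurons by 0.56 (SE 0.05, edgeR adjusted p = 1.5e-04), with library ratios between 0.42 and 0.52, although its level fell several fold over the same stages. The fit was scaled otherwise than the library ratios and did not add 5 CPM, so its value can lie outside their range. Syt6 was higher by 0.52 (SE 0.08, edgeR adjusted p = 0.0043), with library ratios from 0.26 to 0.69.

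The other calls were of smaller size. Syt7 (0.44), Syt5 (0.33), Rims3 (0.32), Rims1 (0.29), Syt4 (0.28), Pclo (0.18) and Rimbp2 (0.18) were higher in excitatory neurons, and Syt1 (-0.35) and Stxbp5 (-0.32) were lower, each in 4 of 4 libraries. Of the 15 calls, 7 held in all 8 alternatives that kept the library block, those of Syt6, Syt7, Stx1a, Stxbp5, Unc13b, Rims3 and Sv2b. The Rimbp2 call, at an edgeR adjusted p of 0.04997, held in 1 of the 8, the Pclo call in 3 and the Syt4 call in 4. Of the SNARE genes, Stx1a was thus called, while Snap25, Vamp1 and Vamp2 were not; neither were the complexin genes Cplx1 and Cplx2.

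**Figure D4:**
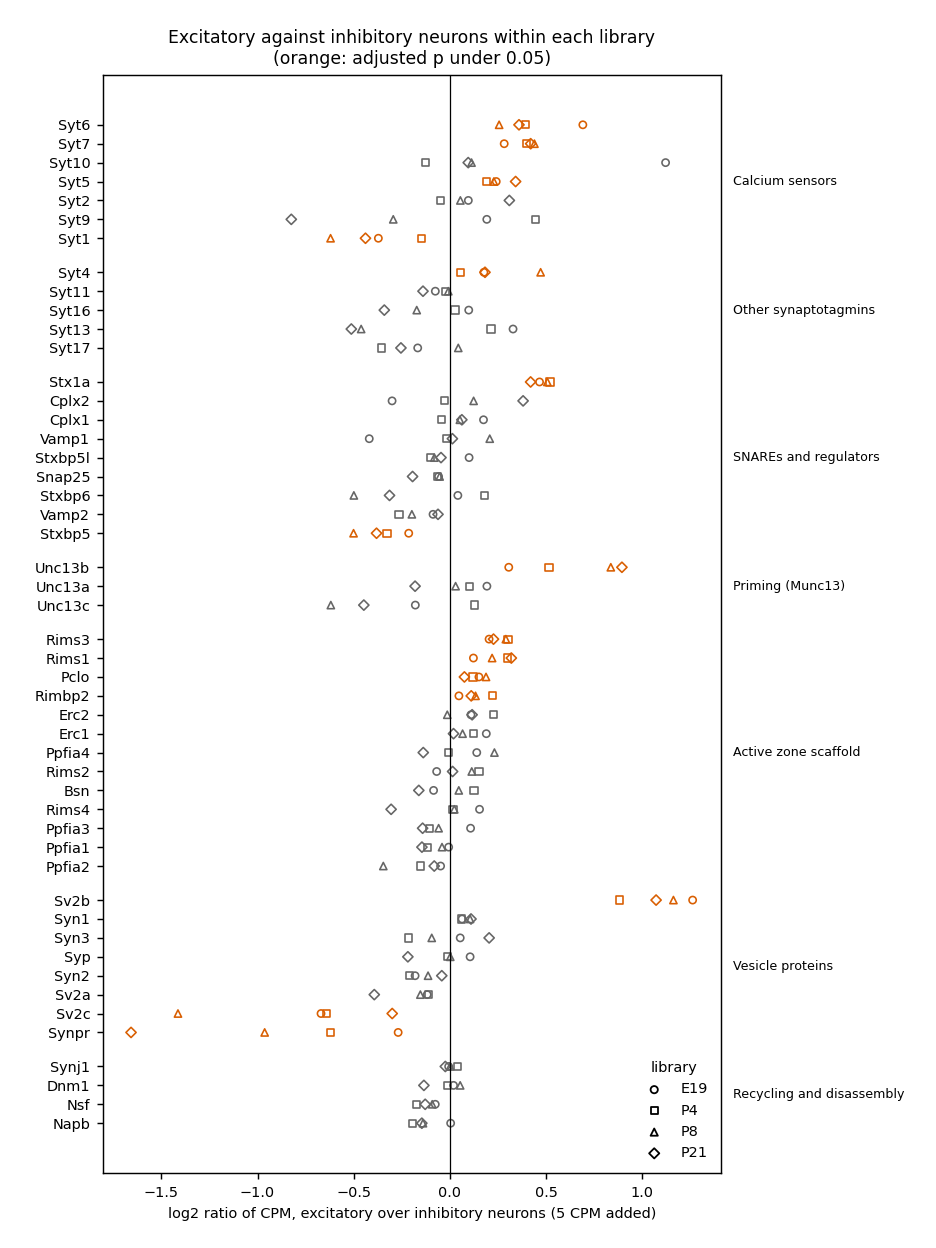
Log2 ratio of CPM, excitatory over inhibitory neurons (5 CPM added), for each member in each of the 4 libraries (marker shapes). Orange genes had an edgeR adjusted p under 0.05. The 4 Sv2b points lie between 0.88 and 1.26, and the 4 Synpr points spread from -0.27 at E19 to -1.66 at P21.

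Members also differed among subtypes within the neuron classes. By the rule that the highest subtype stand at 4 or more times the median subtype of its class, at 20 CPM or more, in at least 2 libraries, 5 members were subtype-selective in inhibitory neurons (Sv2c, Synpr, Syt6, Syt10 and Unc13c) and 2 in excitatory neurons (Syt4 and Syt17). Another 5 passed in 1 library and 37 in none. Of all genes with at least 20 CPM in the highest subtype in 2 or more libraries, 5.28% passed the same rule in inhibitory and 4.94% in excitatory neurons, beside 10.2% and 4.08% of the members, all 49 of which reached that level. Subtypes were defined on the same nuclei and are described without a test.

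Sv2c was highest in subtype IN11 at all 4 stages, at 279.7, 203, 166 and 239.9 CPM, where the median inhibitory subtype held 18.5, 32.4, 46.9 and 54.1 CPM; at P8 the IN11 and IN3 intervals overlapped. Syt6 was highest in IN7 at each stage, at 72.8, 118, 171 and 167 CPM against medians of 21.7, 17.5, 17.3 and 23.7 CPM. Syt10 was highest in IN4 from P4 on, at 62.1, 68.1 and 49.4 CPM, with medians below 8 CPM. These vesicle and synaptotagmin genes, picked for such a difference, were thus each highest in a different inhibitory subtype at several stages.

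Synpr changed its leading subtype. IN10 was highest at E19, P4 and P8, at 399, 360.1 and 583 CPM, and IN7 at P21, at 521 CPM, with IN3 next at 411 CPM. IN7 itself stood at 15.6, 84.1 and 196 CPM at the 3 earlier stages, and its ratio from E19 to P21 of 4.67 was the highest of the 12 subtypes, though it starts from 3 UMIs. Unc13c was highest in IN6 at E19, P4 and P8, at 1101, 1444 and 1601 CPM, and in IN3 at P21, at 2085 CPM. IN7 had the lowest Unc13c among inhibitory subtypes throughout, at 72.8, 54.6, 58.4 and 32.8 CPM. In excitatory neurons EN6 was likewise lowest in Unc13c at all 4 stages, between 4.96 and 55.5 CPM.

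Syt4 was highest in EN6 at each stage, at 1070, 693, 314 and 227 CPM against medians of 234, 123, 72.0 and 89.1 CPM, so that the difference narrowed with stage. Syt17 was highest in EN8, at 54.9, 106, 101 and 70.1 CPM against medians of 9.89, 24.5, 19.1 and 7.08 CPM.

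**Figure D5:**
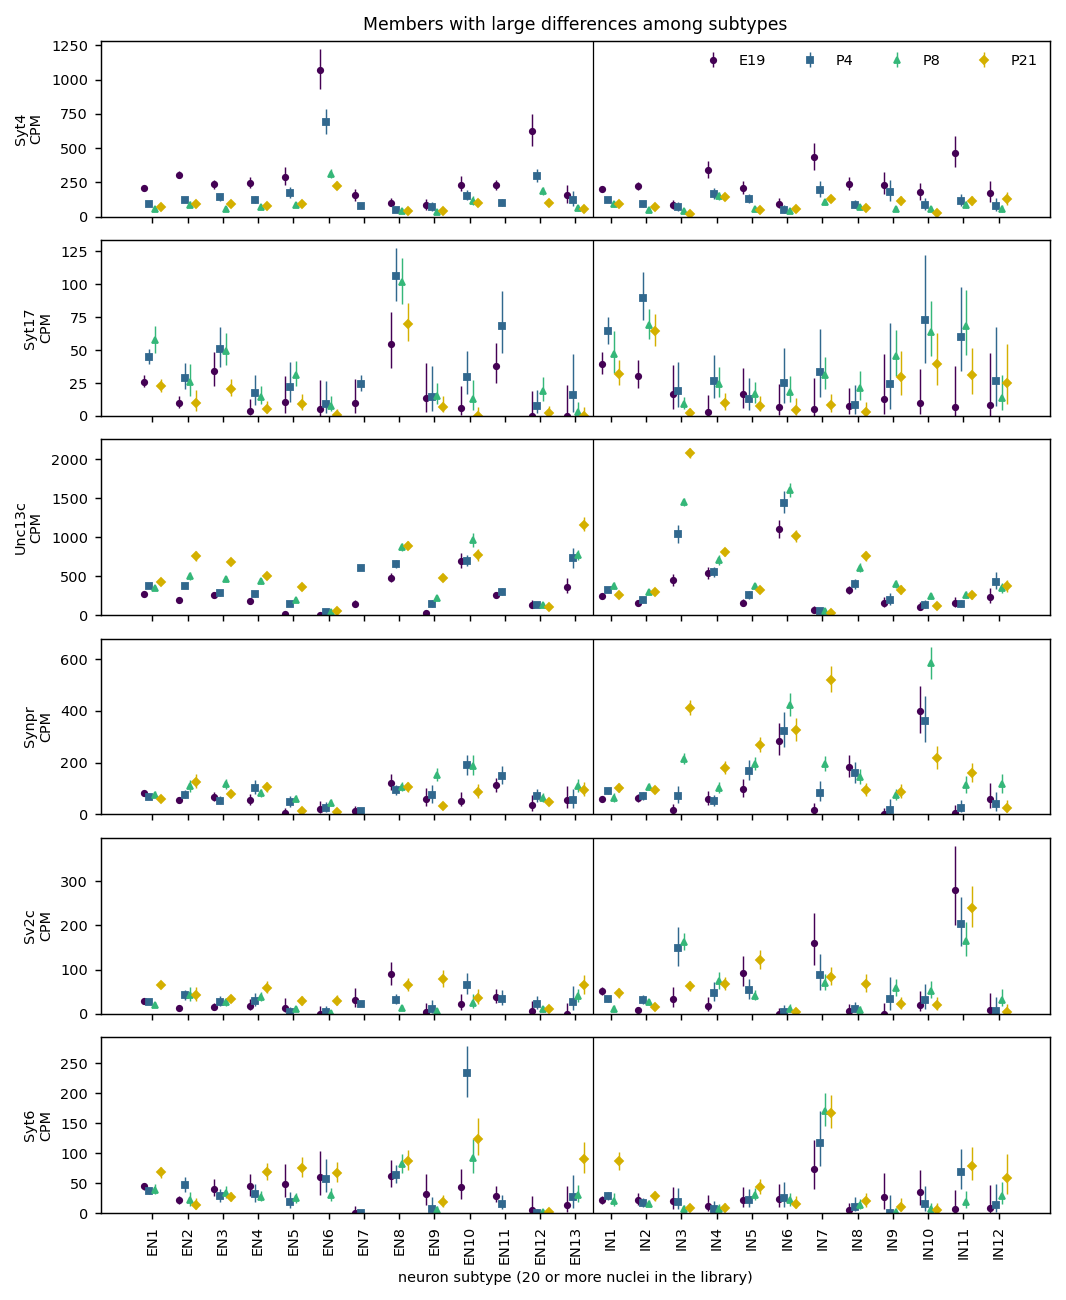
CPM of 6 members in each neuron subtype with at least 20 nuclei in the library, by stage (marker and colour), with 95% counting intervals; excitatory subtypes are left of the line. Syt4 is highest in EN6, Syt17 in EN8, Sv2c in IN11 and Syt6 in IN7 among inhibitory subtypes, and the Synpr and Unc13c leaders change between P8 and P21.

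Neurons of both kinds together were set against astrocytes in the same way, over 14787 genes tested. Of the 49 members, 40 were higher in neurons and 2 lower, where 23.1% of all genes tested were higher and 21.9% lower. The largest differences were those of Syt6 (3.41, SE 0.48), Rims1 (3.41, SE 0.19), Syn3 (3.40, SE 0.15) and Syt1 (3.35, SE 0.19). Snap25 was higher by 2.12 (SE 0.15). The median over all genes was 0.00 in this fit but -0.23 on the CPM scale, so that a member's difference on the CPM scale is lower by about that much.

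At the other end, 6 members had differences below 0. Vamp2 stood at 46.9, 51.5, 38.6 and 36.2 CPM in neurons and at 74.5, 84.2, 79.8 and 46.1 CPM in astrocytes from E19 to P21, lower in neurons in 4 of 4 libraries (-0.48, SE 0.14, edgeR adjusted p = 0.025). Ppfia1, the liprin found in many tissues, was lower by the fit as well (-0.41, SE 0.12, edgeR adjusted p = 0.027). Each of these calls held in 4 of the 8 alternatives with the library block, among them the thinning of every nucleus to the same number of UMIs. Astrocyte nuclei held fewer UMIs, with medians of 4697 at E19 and 5525 at P21 against 7279 and 16388 in neurons. Their median share of ribosomal-protein UMIs was higher, at 0.745% and 0.191% against 0.498% and 0.155%. The part of that share in the differences between neurons and astrocytes was not tested. Vamp1 (-0.56), Syt11 (-0.40), Sv2c (-0.17) and Syn2 (-0.06) did not pass. Sv2c in astrocytes stood at 111, 68.3, 63.7 and 3.08 CPM, while in neurons it stood at 31.3, 33.4, 39.6 and 53.4 CPM, so that the sign of the difference at P21 was opposite to that at the 3 earlier stages.

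Further genes of the release pathway, 52 outside the 49, were read for comparison. Of the 51 with a UMI in each class, 4 rose and 2 fell in excitatory neurons and 5 rose and 2 fell in inhibitory neurons from E19 to P21. The largest rises were those of Synj2 (1.50 and 1.97 in the 2 classes), Rph3a, a Rab3 effector (1.48 and 1.59), and Syt12 (1.45 and 1.21). The falls were those of the vesicle GTPases Rab3b (-1.59 and -1.37) and Rab3a (-1.16 and -1.33), and the next lowest values were -0.97 for Syngr3 in excitatory and -0.85 for Cask in inhibitory neurons. Between excitatory and inhibitory neurons, 7 of 49 tested were higher and 2 lower in excitatory neurons, the largest being Rab3c at -1.17 (SE 0.08, edgeR adjusted p = 7.6e-05).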

How the data were processed

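Nuclei of 4 libraries, 1 a stage, were analysed. The authors deposited UMI counts per gene and nucleus, with stage, class and subtype, and the percent of mitochondrial and ribosomal-protein UMIs of each nucleus; Cell Ranger 3.0.2 and mm10 are named per the submitters' processing notes. Whether intron reads or strand were used, and how doublets were treated, is not given in the sources used here; no nucleus was removed or called a doublet here, and none exceeded 5% mitochondrial UMIs.

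UMIs were summed by library and class and scaled to CPM; library totals are given above. Intervals are exact Poisson intervals for CPM and normal intervals for log2 ratios (95%), and cover counting error only. Class tests used edgeR 4.0.16 (R 4.3.3, with filterByExpr, TMM, terms for library and class, 8 sums). Each SE is the size of the log2 difference divided by the square root of the test's F statistic. They were also run on simulated counts without gene-level differences between libraries, which cannot check the library block. That block follows from both classes sharing a library. Gene spans came from GENCODE M21 on GRCm38, which held 31011 of the 31053 genes; 17 members overlap another gene on their strand and 30 on the other.

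Named genes were the 6 largest rises and 6 largest falls per neuron class at 20 CPM or more, called class differences of at least 0.5 (6 each way), set paralog pairs, subtype-selective members and the 6 smallest neuron-astrocyte differences; other members are given by role. Members and lists were chosen with earlier results of these data known. Alternatives were other added CPM (1, 20), size factors, filters, weightings, thinning to 2300 UMIs, DESeq2 1.42.0, no block and each library left out. Added after seeing the data were nuclei with 0.15 to 0.30% ribosomal-protein UMIs, no nuclei above 40000 UMIs, and no EN7.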

Additional observations from a re-analysis of the deposited data

Results flagged for a closer look

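Of the members, 2 differed in direction between the neuron classes from E19 to P21, with counting intervals on either side of 0; the difference itself was not tested, since each stage is 1 library. Syt13, a synaptotagmin that does not bind calcium, had a log2 ratio of -0.64 in excitatory neurons and 0.20 in inhibitory neurons. It stood at 67.4, 67.4, 39.2 and 41.4 CPM in excitatory and at 52.7, 57.5, 55.9 and 61.1 CPM in inhibitory neurons from E19 to P21. Rims1 had a ratio of 0.12 in excitatory and -0.073 in inhibitory neurons, and its inhibitory sign turned with median-of-ratios scaling and with each nucleus thinned to 2300 UMIs.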

How the results depend on the processing

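Without the library as a replicate block, edgeR called no member between excitatory and inhibitory neurons (0, against 15 with it; 6 against 20 at an unadjusted p under 0.05); at that setting 98 genes were called higher and 85 lower over the whole table. With the block, DESeq2 called 13 members. Leaving out each library in turn gave 9 (without P8) to 12 members in that comparison and 36 to 43 between neurons and astrocytes. Among nuclei with 0.15 to 0.30% ribosomal-protein UMIs, chosen after seeing the data, 21 members passed in inhibitory neurons (13 rose, 8 fell), of which 11 are the same genes as with all nuclei; only 22 inhibitory nuclei at E19 lie in that range. In excitatory neurons that range gave 10. The other settings gave 9 to 14 members past the threshold in excitatory and 10 to 13 in inhibitory neurons. Apart from the filter at 20 CPM, the shares of all genes were not computed at these stage settings. Of the values of single named or called genes, 626 stayed on their side or within their interval, 72 moved and 58 lost their call; none of those past the threshold or called changed sign. With median-of-ratios scaling the signs of Syt9, Bsn and Synpr in excitatory and of Syt7, Rims1 and Ppfia3 in inhibitory neurons turned, none of them past the threshold. In the ribosomal-protein range the signs of 9 excitatory members (Syt6, Syt7, Syt9, Syt10, Vamp2, Rimbp2, Bsn, Pclo and Sv2c) and 5 inhibitory members (Vamp2, Pclo, Ppfia4, Sv2c and Synj1) turned, with inhibitory Sv2c at -1.13 there against 0.44 with all nuclei. Signs also turned under other weightings, thinning and filters for Syt9, Syt10, Ppfia4, Synpr and Bsn in excitatory and for Ppfia3, Syt17, Rims1 and Synj1 in inhibitory neurons, none past the threshold. Causes were not tested. Stage and library cannot be told apart.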
